A study of Mus musculus with 9 samples.

Results

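Small nucleolar RNA genes detected in the whole mouse retina were examined in bulk RNA-Seq of the *Rbpms*-CreERT2 knock-in line. A gene was included when its name began with *Snord*, *Snora* or *Scarna* and its level averaged at least 1 TPM over all 9 libraries. TPM is a transcript abundance scaled for gene length that sums to 1000000 in each library. The genes were thus chosen by their mean level, not by a difference between genotypes. The mean of 6 genes reached the limit only through 1 homozygous knock-in library. Of 119 such names in the gene tables, 96 met this limit, comprising 56 of 74 *Snord*, 32 of 36 *Snora* and 8 of 9 *Scarna* names. The tables held 25239 gene names in all, of which 15198 reached the same limit and made up the genes tested.

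The libraries came from 3 +/+, 3 Cre/+ and 3 Cre/Cre animals of the C57BL/6J background at P42 (postnatal day 42), with 1 pair of retinas per library. Cre/+ and Cre/Cre are heterozygous and homozygous for a P2A-CreERT2 cassette joined in frame to the end of *Rbpms*, an RNA-binding protein gene active in retinal ganglion cells, and +/+ carry no cassette. CreERT2 is a recombinase that enters the nucleus only with tamoxifen, and the labels name no tamoxifen treatment and no floxed allele in any of these groups. Because whole retinas were used, fewer cells of a type and less RNA per cell could not be told apart.

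All 22 markers of rods, cones, bipolar, amacrine, horizontal, ganglion and Müller cells were present in every library, at 3.33 to 22574 TPM. *Rbpms* stood at 38.4 to 43.4 TPM in +/+, 31.3 to 33.1 in Cre/+ and 19.1 to 24.2 in Cre/Cre, so the levels followed the labelled genotypes without overlap. *Xist*, expressed in female mice, was at 516 to 571 TPM in all 3 +/+ libraries but at 2.82 TPM in Cre/+ replicate 3, 2.08 in Cre/Cre replicate 1 and 3.16 in Cre/Cre replicate 3, so the sexes were not balanced over the genotypes. The 3 lens crystallins *Cryaa*, *Cryba1* and *Crygs* summed to 9.20 to 197 TPM in 8 libraries and to 896 TPM in Cre/Cre replicate 2. Their part in the values below was not tested. Aligned sequence amounted to 4.05 to 4.65 gigabases per library.

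Small nucleolar RNAs (snoRNAs) guide the chemical modification of other RNAs by base pairing. Those of the box C/D class direct ribose methylation, those of the H/ACA class direct the conversion of uridine to pseudouridine, and both act mainly on ribosomal RNA in the nucleolus, while small Cajal body RNAs (scaRNAs) guide the same reactions on spliceosomal RNAs. In mammals most are cut from the introns of host genes after splicing, bind a set of core proteins that shield them from exonucleases, and carry no poly(A) tail. By name, *Snord* genes belong to the box C/D class, *Snora* genes to the H/ACA class and *Scarna* genes to the Cajal body RNAs.

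The sequences of the RNAs on which the results turn were taken from GENCODE M21, which annotates GRCm38 (mm10), and are written 5′ to 3′ as DNA letters of the RNA strand. Box C/D snoRNAs carry a C box near the 5′ end and a D box near the 3′ end. Capitals mark TGATGA within the first 20 bases and CTGA within the last 20 bases. *Snord22*, *Snord15b* and *Snord118* are shown because their levels set 1 library apart, *Snord96a* as the least variable of the genes, and *Snord89* because it had the smallest p-value between Cre/Cre and +/+.
*Snord22*: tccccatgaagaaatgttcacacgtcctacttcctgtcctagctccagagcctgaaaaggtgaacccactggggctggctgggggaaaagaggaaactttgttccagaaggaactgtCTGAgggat
*Snord15b*: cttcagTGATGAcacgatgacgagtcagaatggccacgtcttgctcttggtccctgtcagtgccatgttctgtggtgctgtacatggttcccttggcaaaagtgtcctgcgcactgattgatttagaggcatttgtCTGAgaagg
*Snord118*: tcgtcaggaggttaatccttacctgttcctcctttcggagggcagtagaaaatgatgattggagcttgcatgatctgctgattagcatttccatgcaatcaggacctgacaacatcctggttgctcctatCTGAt
*Snord96a*: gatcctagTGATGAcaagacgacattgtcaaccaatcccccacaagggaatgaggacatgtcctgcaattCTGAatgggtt
*Snord89*: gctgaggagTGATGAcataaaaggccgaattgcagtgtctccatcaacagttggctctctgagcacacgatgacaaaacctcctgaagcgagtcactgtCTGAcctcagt
*Snord22* lies at chr19:8725866-8725991 on the plus strand, *Snord15b* at chr7:99479563-99479707 on the minus strand, *Snord118* at chr11:69073427-69073561 on the plus strand, *Snord96a* at chr11:48802032-48802112 on the plus strand and *Snord89* at chr1:39548745-39548854 on the minus strand. Of the 56 *Snord* genes, 35 (62.5%) held TGATGA in this window and 54 (96.4%) held CTGA, against 0 and 4 (12.5%) of the 32 *Snora* genes. *Snord22* and *Snord118* are among those without TGATGA in this window.

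H/ACA snoRNAs fold into hairpins followed by a short tail with the letters ACA. Capitals mark ACA within the last 10 bases of *Snora16a*, a gene of low variation, of *Snora23*, which was high in 1 library, and of *Snora75*, which had the smallest p-value between Cre/Cre and Cre/+.
*Snora16a*: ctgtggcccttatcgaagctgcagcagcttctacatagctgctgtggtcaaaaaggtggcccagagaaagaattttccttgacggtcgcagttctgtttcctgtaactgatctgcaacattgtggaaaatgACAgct
*Snora23*: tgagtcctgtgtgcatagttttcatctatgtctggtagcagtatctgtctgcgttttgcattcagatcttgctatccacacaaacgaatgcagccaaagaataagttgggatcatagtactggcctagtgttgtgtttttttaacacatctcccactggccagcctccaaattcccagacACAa
*Snora75*: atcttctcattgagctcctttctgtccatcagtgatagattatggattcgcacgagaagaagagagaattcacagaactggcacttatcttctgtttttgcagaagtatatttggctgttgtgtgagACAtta
They lie at chr4:132309464-132309600 on the plus strand, chr7:110046364-110046547 on the plus strand and chr1:86351169-86351301 on the minus strand. ACA in this window was found in 30 of the 32 *Snora* genes (93.8%), in 7 of the 56 *Snord* genes (12.5%), and in 698 of 1409 annotated snoRNA and scaRNA transcripts with names of other forms (49.5%). In that last set TGATGA at the 5′ end occurred in 18.3% and CTGA at the 3′ end in 30.9%.

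The gene models behind the deposited values were often shorter than the annotated RNAs. The length of the deposited span had a median of 87.9% of the GENCODE length over the 96 genes, and was below 75% of it in 18 genes. These are ratios of lengths and do not measure overlap. Capitals mark the deposited span inside the annotated RNA of *Snord64*, *Snord98* and *Scarna9*, at 68.7%, 43.1% and 60.0% of the length.
*Snord64*: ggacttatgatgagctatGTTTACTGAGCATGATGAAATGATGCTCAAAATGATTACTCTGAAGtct
*Snord98*: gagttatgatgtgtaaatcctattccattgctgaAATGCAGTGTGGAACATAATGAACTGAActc
*Scarna9*: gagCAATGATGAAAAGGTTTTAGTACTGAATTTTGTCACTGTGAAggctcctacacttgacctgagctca
They lie at chr7:59978808-59978874, chr10:62765576-62765640 and chr9:15326264-15326333, each on the minus strand. For *Scarna2* and *Scarna10* the deposited span was 14.7% and 21.8% of the annotated length, and that part alone is shown, at chr3:108554342-108554402 and chr6:125186361-125186431 on the minus strand.
*Scarna2*: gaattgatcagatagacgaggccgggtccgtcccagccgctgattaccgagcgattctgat
*Scarna10*: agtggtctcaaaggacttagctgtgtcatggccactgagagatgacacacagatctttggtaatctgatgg
TPM divides by the length of the gene model, so a level given here refers to the deposited span. *Snora19* and *Snord58b* had 2 loci each, which were summed, and *Snord98* was named here for its short span after its values were seen.

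The levels were low, and they varied more than those of most genes. The mean level had a median of 7.73 TPM over the 96 genes, against 26.5 TPM over the genes tested. It had a median of 6.67 TPM among *Snord*, 8.42 TPM among *Snora* and 9.97 TPM among *Scarna* genes. The coefficient of variation over the 9 libraries had a median of 42.2%, against 10.01% over the genes tested, and of 38.8% against 9.31% without Cre/Cre replicate 1. In 66 genes every library reached 1 TPM, and 18 genes were listed at 0 in at least 1 library. The aligned bases behind a gene averaged a median of 761 per library, or 5.07 read lengths of 150 bases. In 7 genes they averaged less than 1 read length. The deposited spans had a median of 81.5 bases, shorter than a read, so these values are not numbers of reads.

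The limit of 1 TPM cut through a range in which single libraries decided. The genes just inside it were *Snord11* (mean 1.05 TPM), *Snora62* (1.05 TPM) and *Snora19* (1.14 TPM), and those just outside were *Snord111* (0.926 TPM), *Snord61* (0.830 TPM) and *Snord43* (0.648 TPM). Of the 23 names below the limit, 4 were at 0 in all 9 libraries. Without Cre/Cre replicate 1, the mean of 6 genes fell below the limit, namely *Scarna9*, *Snora21*, *Snora74a*, *Snord11*, *Snord118* and *Snord15a*.

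The 10 highest mean levels were those of *Snord22*, *Snord64*, *Snord96a*, *Scarna2*, *Snora81*, *Scarna17*, *Snord104*, *Snord69*, *Snora16a* and *Snord15b*, from 82.0 TPM down to 26.1 TPM. In *Snord22*, *Scarna2* and *Snord15b* the mean was carried by 1 library. *Snora81* ranged from 25.8 TPM in Cre/+ replicate 2 to 49.5 TPM in Cre/Cre replicate 1, *Snord104* from 16.0 to 42.6 TPM in Cre/+ replicate 3 and Cre/Cre replicate 1, and *Snord69* from 17.0 TPM in Cre/+ replicate 2 to 41.5 TPM in Cre/Cre replicate 2.

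The steadiest genes were *Snord96a*, *Snord2*, *Snora16a*, *Snora65* and *Snord42b*, with coefficients of variation of 10.6%, 16.1%, 16.6%, 17.0% and 17.8%. *Snord96a* was at 42.8, 48.5 and 49.5 TPM in +/+, at 45.0, 35.9 and 46.0 TPM in Cre/+, and at 43.7, 52.4 and 49.7 TPM in Cre/Cre. *Snord2* was at 26.9, 22.2 and 20.98 TPM in +/+, at 27.5, 22.1 and 23.1 TPM in Cre/+, and at 26.9, 30.4 and 33.2 TPM in Cre/Cre. *Snora16a* ranged from 18.8 TPM in Cre/+ replicate 1 to 32.7 TPM in Cre/Cre replicate 1. In *Snord96a* and *Snora16a* the ranges of the 3 genotypes overlapped, and in *Snord2* Cre/Cre overlapped both other genotypes through replicate 1 only.

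*Snord64*, encoded in the imprinted *Snhg14* transcript of the Prader-Willi region, was the second highest gene by mean level. It was at 49.1, 37.5 and 45.2 TPM in +/+, at 50.5, 54.7 and 64.7 TPM in Cre/+, and at 36.3, 45.9 and 55.2 TPM in Cre/Cre. Every Cre/+ value lay above every +/+ value, and Cre/Cre overlapped both. No *Snord115* name was among the 119 names, so its level is not known here. Of *Snord116*, only *Snord116l1* and *Snord116l2* were listed, below the limit at 0.237 and 0.579 TPM. *Snord14c*, of the U14 family that takes part in processing of the small-subunit ribosomal RNA, ranged from 2.16 TPM in Cre/Cre replicate 1 to 6.60 TPM in Cre/Cre replicate 3.

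Cre/Cre replicate 1 stood apart. The 96 genes summed to 875, 852 and 862 TPM in +/+, to 896, 870 and 960 TPM in Cre/+, and to 2470, 1014 and 941 TPM in Cre/Cre, so that all Cre/Cre libraries but replicate 3 lay above the other genotypes. The mean sum was 863 ± 11.6 TPM in +/+, 908 ± 46.5 TPM in Cre/+ and 1475 ± 863 TPM in Cre/Cre (SD, n = 3 each), and 977.5 TPM without Cre/Cre replicate 1.

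**Figure D1:**
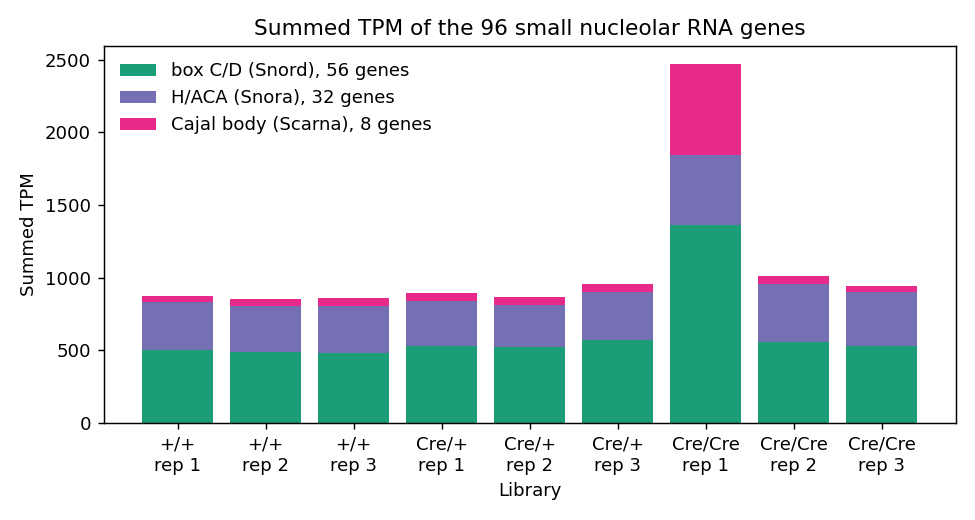
Summed TPM (y axis, from 0) of the 56 *Snord*, 32 *Snora* and 8 *Scarna* genes in each of the 9 libraries (x axis), stacked by class. The bar of Cre/Cre replicate 1 reaches 2470 TPM, while the other 8 lie between 852 and 1014 TPM.

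The classes contributed unequally. *Scarna* genes summed to 626 TPM in Cre/Cre replicate 1 and to 35.9 to 59.9 TPM elsewhere, and *Snord* genes to 1360 TPM there and to 484 to 573 TPM elsewhere. *Snora* genes summed to 329, 314 and 325 TPM in +/+, to 308, 284 and 331 TPM in Cre/+, and to 484, 400 and 373 TPM in Cre/Cre. All 3 Cre/Cre sums of the H/ACA class thus lay above the 6 others. The box C/D sums were 501, 490 and 484 TPM in +/+ and 529, 526 and 573 TPM in Cre/+. Those of Cre/Cre replicates 2 and 3, at 559 and 532 TPM, lay within the range of Cre/+. Every knock-in sum of the box C/D class lay above every +/+ sum.

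At least a 2-fold excess over the highest of the other 8 libraries was found for 16 of the 96 genes (16.7%) in Cre/Cre replicate 1, where 0.388% of the genes tested had it. The counts in the other libraries were 2 genes in Cre/+ replicate 1 (0.0658% of the genes tested), 1 in Cre/Cre replicate 2 (0.237%) and 0 in the remaining 6 (0.0132% to 0.0658%, and 0.0263% in Cre/Cre replicate 3). The 16 genes summed to 1499 TPM in Cre/Cre replicate 1 and to 52.5 to 71.5 TPM elsewhere, and the other 80 genes summed to 799 to 972 TPM over all 9 libraries. They comprised 5 *Snord*, 5 *Snora* and 6 *Scarna* genes. Since this library chose them, its values are given as a description. The genes *Scarna9*, *Snora21*, *Snora74a*, *Snord118* and *Snord15a*, 5 of the 16, reached the limit of 1 TPM only through this library. Of the 90 genes that reached it over the other 8 libraries, a limit chosen after the data were seen, 11 had the excess (12.2%), against 0.231% of all genes that did so.

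*Snord22*, a box C/D snoRNA with a role in processing of the small-subunit ribosomal RNA, was at 29.0, 23.1 and 15.5 TPM in +/+, at 33.6, 26.5 and 26.7 TPM in Cre/+, and at 546, 18.0 and 19.8 TPM in Cre/Cre. *Snord15b* was at 1.84, 0.338 and 7.35 TPM in +/+, at 1.73, 5.27 and 1.32 TPM in Cre/+, and at 212, 3.27 and 2.27 TPM in Cre/Cre. In both, the other Cre/Cre libraries lay within the range of the +/+ libraries. *Snord118*, the U8 snoRNA needed for the large-subunit ribosomal RNA, was at 0.450, 0 and 0.767 TPM in +/+, at 0.168, 0 and 0 TPM in Cre/+, and at 15.1, 1.28 and 0.694 TPM in Cre/Cre. *Snord15a* and *Snord17*, named after their values were seen, reached 31.6 and 49.0 TPM in that library and no more than 2.36 and 3.50 TPM elsewhere.

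The *Scarna* genes with the excess included RNAs with and without a host gene. *Scarna2*, a guide for the spliceosomal U2 RNA that had no host, was at 4.13, 0.698 and 9.84 TPM in +/+, at 9.19, 7.24 and 11.6 TPM in Cre/+, and at 276, 10.2 and 3.83 TPM in Cre/Cre. *Scarna10*, which lies within *Ncapd2*, was at 0, 0.336 and 1.71 TPM in +/+, at 1.80, 1.37 and 1.38 TPM in Cre/+, and at 129, 3.46 and 0 TPM in Cre/Cre. The pattern of 1 high library was the same in both, although 1 of the remaining Cre/Cre libraries lists *Scarna10* at 0. *Scarna6* reached 74.9 TPM in Cre/Cre replicate 1 and 1.59 to 5.95 TPM elsewhere, *Scarna13* 37.5 TPM against 2.69 to 7.32 TPM, *Scarna3a* 14.2 TPM against 0.722 to 3.28 TPM, and *Scarna9* 13.3 TPM against 0 to 1.58 TPM. *Scarna17*, another RNA without a host, reached 80.3 TPM there and 18.2 to 41.9 TPM elsewhere, which is 1.92 times the next library and short of the 2-fold limit. *Scarna8* did not share the pattern, at 0.874 TPM in Cre/Cre replicate 1 and 0 to 3.33 TPM elsewhere.

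Among the H/ACA genes, *Snora74a* reached 22.7 TPM there and no more than 1.22 TPM elsewhere. *Snora23*, *Snora15*, *Snora21* and *Snora78*, named after their values were seen, reached 33.7, 22.2, 11.5 and 10.3 TPM there and no more than 7.34, 4.73, 2.79 and 4.60 TPM elsewhere. Opposite values occurred too, since *Snora20* and *Snora62* were listed at 0 in Cre/Cre replicate 1, and *Snora70* stood there at 0.103 times the highest other library.

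**Figure D2:**
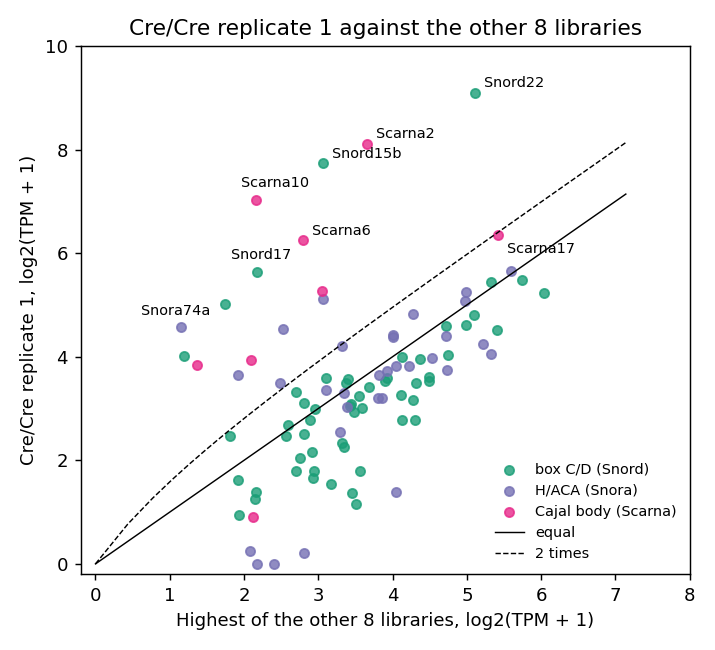
Level in Cre/Cre replicate 1 (y axis) against the highest level in the other 8 libraries (x axis), both as log2(TPM + 1), for the 96 genes coloured by class. The solid line marks equal levels and the dashed line a 2-fold excess, above which 16 genes lie, led by *Scarna10* at 37.4 times and *Snord15b* at 28.8 times.

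The genes with the excess were mostly the longer RNAs. Their annotated length had a median of 146.5 bases and was at least 100 bases in 15 of 16, against a median of 87 bases and 32 of 80 among the rest. *Scarna9*, annotated at 70 bases, was the exception. Without the genes that reached 1 TPM only through Cre/Cre replicate 1, the median was 184 bases over the 11 high genes, of which 11 had at least 100 bases, against 87 bases and 32 of 79 among the rest. Length is largely set by class, since *Snora* RNAs had a median deposited span of 119 bases and *Snord* RNAs of 68 bases, while the 5 *Snord* genes with the excess, at 126 to 238 bases, were annotated longer than every other *Snord* gene, at 64 to 111 bases.

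**Figure D3:**
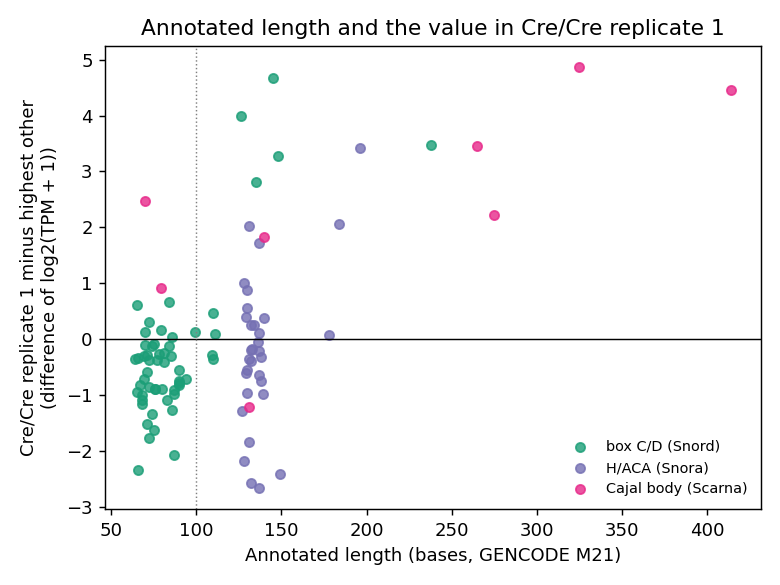
Annotated length in bases (x axis) and the level in Cre/Cre replicate 1 minus the highest other library on the log2(TPM + 1) scale (y axis) for the 96 genes, coloured by class, with a dotted line at 100 bases. Of the 16 genes at least 2-fold above the other libraries, 15 are annotated at 100 bases or more.

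Other RNAs without a poly(A) tail were also high in Cre/Cre replicate 1. Of 7 such genes present, from 11 names listed, 5 showed at least a 2-fold excess there, against 0.388% of the genes tested. *Terc* and *Rnu11* did not, at 0.836 and 1.95 times the highest other library. *Rpph1*, the RNA of ribonuclease P, was at 5196 TPM against 7.07 to 59.9 TPM in the other libraries, and *Rmrp*, the RNA of ribonuclease MRP, was at 4436 TPM against 3.58 to 37.6 TPM. *Rnu12*, the U12 RNA, was at 39.7 TPM against 0 to 1.16 TPM. Rn45s, the ribosomal RNA precursor, took 9.21% of the TPM in that library and at most 0.336% in the others. The median-ratio size factor of its TPM values was 0.916, against 0.985 to 1.03 in the other libraries, so the typical gene stood lower there. The part of these differences in the levels of the snoRNA genes was not tested.

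Host genes were taken as genes on the same strand whose deposited span contained that of the snoRNA gene. Where several did, that with the highest mean TPM was taken. This choice can only lower the level of a snoRNA gene relative to its host. Hosts were found for 91 of the 96 genes and numbered 69, of which 16 held several (38 genes in all). Many hosts were genes of the translation machinery and nucleolus. Ribosomal protein genes numbered 22 and held 30 of the snoRNA genes, the noncoding hosts *Gas5*, *Zfas1* and the *Snhg* genes held 16, translation factors and *Rack1* held 9, and the nucleolar proteins *Nop56*, *Nop58*, *Ncl*, *Gnl3*, *Nop53* and *Wdr43* held 9. *Scarna2*, *Scarna17*, *Snord104*, *Snord118* and *Snord89* had none.

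Against annotated exons, the deposited spans of 41 genes lay wholly inside an exon of another gene, 45 in introns only, 4 partly over an exon and 6 outside any annotated gene. For 30 of the 41, the exon belonged only to transcripts annotated as retained introns. The mean level had a median of 9.34 TPM among the 41 and of 4.33 TPM among the 45 in introns. Reads from such a transcript and from the excised snoRNA could not be told apart in these tables. *Snora17* and *Snora43* lay outside any GENCODE gene although the deposited span of *Snhg7* contained them, and *Snord89* lay in a GENCODE intron but in no deposited host.

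The level of a snoRNA gene was not that of its host. It lay below the host in 88 of 91 genes, at a median of 4.89% of the host's TPM, and Spearman's rho between the levels was 0.07 across the 91 genes, which are not independent since hosts are shared. *Snord14c* was at 0.329% of *Hspa8*, *Snord96a* at 13.3% of *Rack1*, and *Snora81* at 6.81% of *Eif4a2*. Above their hosts were *Snord22* in *Snhg1*, *Snord64* in *Snhg14* and *Snora78* in *Snhg9*. Without Cre/Cre replicate 1, *Snord22* averaged 24.0 TPM and was no longer above *Snhg1*, while *Snord64* and *Snora78* were still above. *Snhg9* was itself low, with a mean of 2.61 TPM, from 0.136 in Cre/+ replicate 2 to 6.14 in Cre/+ replicate 3.

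**Figure D4:**
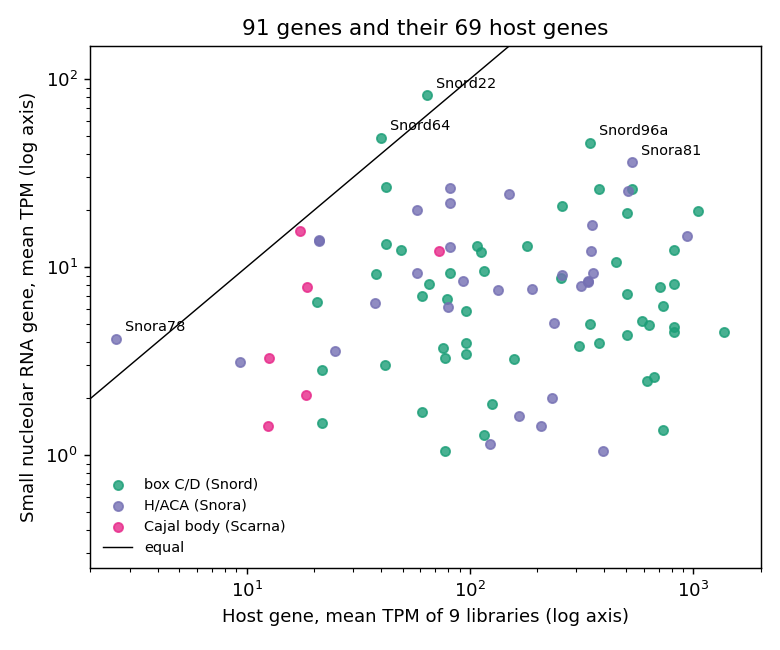
Mean TPM over 9 libraries of 91 snoRNA and scaRNA genes (y axis) against that of their host genes (x axis), both on log axes and coloured by class, with a line at equal levels. Of the 91 genes, 88 lie below the line, and *Snord22*, *Snord64* and *Snora78* lie above it.

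The hosts did not share the excess of Cre/Cre replicate 1. The 16 genes had 13 hosts, as 2 of the genes had none. These hosts stood there at 0.417 to 0.922 times the highest of the other libraries. The lowest ratio was that of *Snhg9*, which had a mean of only 2.61 TPM. *Rps3*, host of *Snord15a* and *Snord15b*, was at 368 TPM in that library and at 329 to 437 TPM in the others, and *Snhg1* was at 57.4 TPM against 54.2 to 74.3 TPM. Genes within 1 host also differed in level. *Snhg12* held *Snora16a*, *Snora61*, *Snora44* and *Snord99* at mean levels of 26.2, 21.9, 12.8 and 9.27 TPM, and *Rpl13a* held *Snord32a*, *Snord33*, *Snord34* and *Snord35a* at 12.3, 8.16, 4.77 and 4.54 TPM. These 8 genes were given as those of the hosts with the most snoRNA genes.

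The comparison of Cre/+ with +/+ asked whether 1 knock-in allele alters these RNAs. No snoRNA gene passed an adjusted p of 0.05 in limma over all genes tested, and 0.00658% of the genes tested did. At an unadjusted p below 0.05 there were 16 genes (16.7%), where 10.7% of the genes tested had such a p. Of these, 11 were higher and 5 lower in Cre/+, against 4.90% and 5.82% of the genes tested. The difference on the log2(TPM + 1) scale had a median of 0.05 over the 96 genes and of 0.00 over all, and 51 genes lay above 0. Medians by class were 0.13 for *Snord*, -0.10 for *Snora* and 0.10 for *Scarna* genes. The standard error had a median of 0.38 for the snoRNA genes and 0.11 for all genes. At least 2-fold apart were 5 genes, against 0.428% of the genes tested. Genotypes did not overlap for 7 genes that were higher and 4 that were lower in Cre/+, with 11.9% and 10.3% of the genes tested doing so.

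*Snord35b*, a box C/D snoRNA, was at 8.95, 7.14 and 6.17 TPM in +/+, at 3.92, 3.49 and 2.69 TPM in Cre/+, and at 4.05, 5.20 and 4.61 TPM in Cre/Cre. All knock-in values lay below all +/+ values, and Cre/Cre lay between the others. The difference between Cre/+ and +/+ was -0.94 ± 0.17 (SE) on the log2(TPM + 1) scale, with the smallest adjusted p of any snoRNA gene (0.130, limma). The difference between Cre/Cre and +/+ was -0.57 ± 0.17 with an adjusted p of 0.543.

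*Snord89* was at 4.40, 4.18 and 4.31 TPM in +/+, at 9.90, 8.12 and 6.39 TPM in Cre/+, and at 7.51, 7.55 and 9.78 TPM in Cre/Cre. Every knock-in library lay above every +/+ library, and Cre/+ and Cre/Cre overlapped. The difference was 0.77 ± 0.16 for Cre/+ with an adjusted p of 0.274, and 0.80 ± 0.16 for Cre/Cre with an adjusted p of 0.181 (limma), the smallest in that comparison. Both contrasts share the same +/+ libraries. *Snora65*, in *Rpl12*, was at 13.7, 15.1 and 13.7 TPM in +/+, at 16.5, 19.9 and 22.1 TPM in Cre/+, and at 14.8, 16.9 and 17.1 TPM in Cre/Cre, with a Cre/+ difference of 0.42 ± 0.12 and an adjusted p of 0.357.

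**Figure D5:**
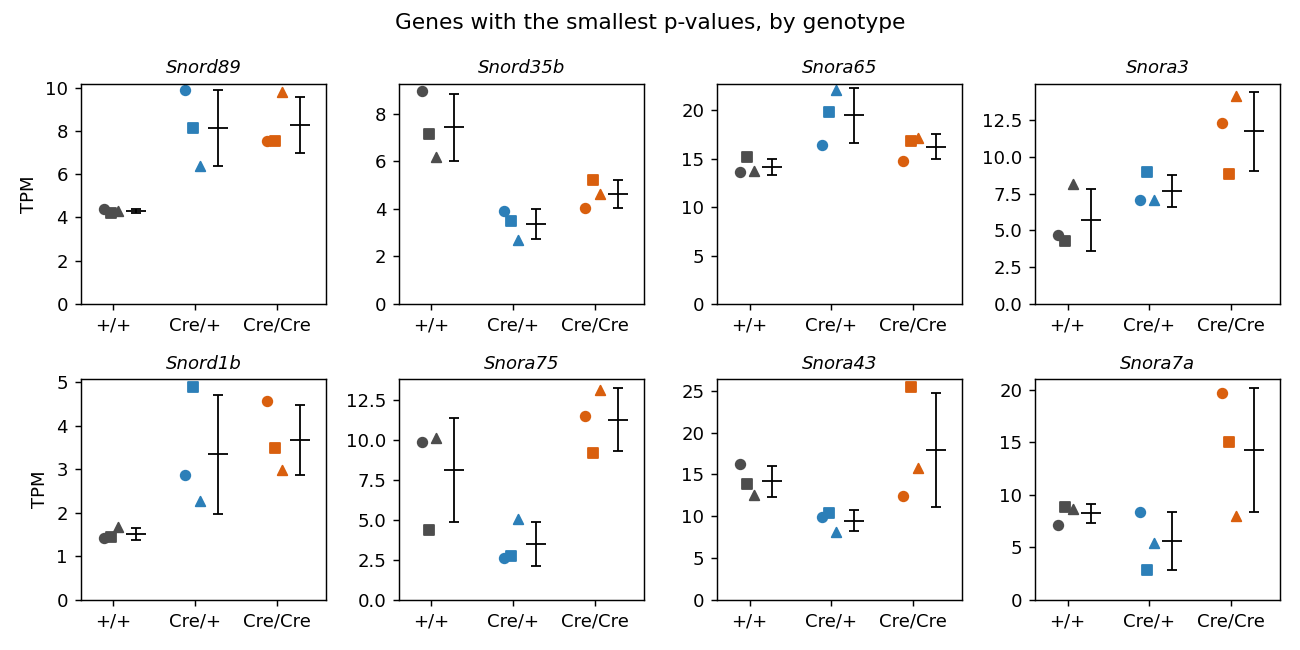
TPM (y axis, from 0) of the 8 genes with the 3 smallest p-values of any comparison, by genotype (x axis), with circles, squares and triangles for replicates 1, 2 and 3 and bars for the mean ± SD (n = 3). The knock-in libraries of *Snord89* all lie above the +/+ libraries and those of *Snord35b* all lie below, at adjusted p-values of at least 0.130.

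The comparison of Cre/Cre with +/+ asked the same of 2 alleles. No snoRNA gene passed the adjusted p, which 0.00658% of the genes tested did, and 7 genes (7.29%) had an unadjusted p below 0.05, where 6.97% of the genes tested had one. Of these, 6 were higher and 1 lower, against 1.58% and 5.39% of the genes tested. The median difference was 0.26 on the log2(TPM + 1) scale, against -0.02 over all genes, and 71 of 96 genes lay above 0 (74.0%, against 42.3% of the genes tested). By class, the median was 0.16 for *Snord*, 0.27 for *Snora* and 1.29 for *Scarna* genes. At least 2-fold apart were 16 genes, against 0.559% of the genes tested. Genotypes did not overlap for 6 genes higher in Cre/Cre and 1 lower, where 2.70% and 8.05% of the genes tested did so. The 6 included *Scarna9*, which reached the limit of 1 TPM only through Cre/Cre replicate 1.

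These counts rested in part on Cre/Cre replicate 1. Without it the median difference was 0.18, 61 genes lay above 0 (63.5%, against 56.2% of the genes tested), 7 genes were at least 2-fold apart, against 0.513% of the genes tested, and the medians by class were 0.09, 0.25 and 0.39. The count at an unadjusted p below 0.05 was then 17, against 9.47% of the genes tested, and the smallest adjusted p was 0.337 (limma). Directions of the 17 genes are not counted, since no share of the genes tested was taken by direction for this fit. Genotypes then did not overlap for 17 genes higher and 6 lower, where 15.9% and 9.81% of the genes tested did so. All 96 genes stayed in this fit, including the 6 whose mean fell below 1 TPM without Cre/Cre replicate 1.

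*Snora3*, encoded in *Rpl27a*, was at 4.67, 4.28 and 8.16 TPM in +/+, at 7.09, 8.94 and 7.04 TPM in Cre/+, and at 12.3, 8.83 and 14.1 TPM in Cre/Cre. *Snord1b*, in *Snhg16*, was at 1.42, 1.44 and 1.67 TPM in +/+, at 2.87, 4.89 and 2.27 TPM in Cre/+, and at 4.56, 3.49 and 2.99 TPM in Cre/Cre. In both genes all Cre/Cre values lay above all +/+ values. The differences were 0.95 ± 0.21 and 0.89 ± 0.22 on the log2(TPM + 1) scale, at adjusted p-values of 0.387 and 0.462 (limma), and *Snora3* passed the threshold without +/+ replicate 3 (adjusted p 0.0454). The aligned bases of *Snord1b*, annotated at 75 bases, averaged 1.79 read lengths per library, which is not a number of reads. Its annotated RNA shares 97.4% of its letters in order with *Snord1c* of the same host. Reads of this pair may thus have been divided by the counting.

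Cre/Cre and Cre/+ were compared to set 2 alleles against 1. No snoRNA gene passed the adjusted p, and 0.0132% of the genes tested did. An unadjusted p below 0.05 was found for 13 genes (13.5%), against 6.58% of the genes tested, with 8 higher (2.38% of the genes tested) and 5 lower (4.20% of the genes tested) in Cre/Cre. The median difference was 0.21, against -0.03 over all genes, and 0.12 for *Snord*, 0.25 for *Snora* and 1.13 for *Scarna* genes. At least 2-fold apart were 19 genes, against 0.684% of the genes tested. Genotypes did not overlap for 8 genes higher in Cre/Cre and 5 lower, where 4.76% and 7.23% of the genes tested did so. The 8 included *Scarna9* and *Snord118*, which reached the limit of 1 TPM only through Cre/Cre replicate 1. Without Cre/Cre replicate 1 the median was 0.09, the class medians were 0.05, 0.29 and -0.16, 9 genes were at least 2-fold apart (against 0.645% of the genes tested), and 20 genes had an unadjusted p below 0.05 (against 4.97%). The genotypes then did not overlap for 15 genes higher and 10 lower, where 13.4% and 8.50% of the genes tested did so. All 96 genes again stayed in the fit, including the 6 whose mean fell below 1 TPM without that library. By their medians, *Scarna* genes thus lay above Cre/+ with that library and below without it, and *Snora* genes lay above in both cases. The *Snora* median was itself -0.10 in Cre/+ against +/+.

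The 3 genes with the smallest p here were all of the H/ACA class. *Snora75*, in *Ncl*, was at 9.92, 4.40 and 10.1 TPM in +/+, at 2.62, 2.77 and 5.07 TPM in Cre/+, and at 11.5, 9.21 and 13.1 TPM in Cre/Cre. *Snora43*, in *Snhg7*, was at 16.2, 13.8 and 12.5 TPM in +/+, at 9.92, 10.4 and 8.13 TPM in Cre/+, and at 12.5, 25.5 and 15.8 TPM in Cre/Cre. Both were lowest in Cre/+ and did not overlap between Cre/+ and Cre/Cre. The differences were 1.48 ± 0.30 at an adjusted p of 0.410 and 0.80 ± 0.21 at an adjusted p of 0.590 (limma). *Snora75* passed the threshold when only the genotypes compared entered the fit (adjusted p 0.0332), and *Snora43* with *Xist* as a covariate (adjusted p 0.0189). *Snora7a*, in *Rpl32*, was at 7.16, 8.86 and 8.62 TPM in +/+, at 8.39, 2.84 and 5.45 TPM in Cre/+, and at 19.7, 15.0 and 7.99 TPM in Cre/Cre, with overlapping genotypes and a difference of 1.23 ± 0.40 at an adjusted p of 0.740.

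The host genes gave no call either. Of the 69 hosts, 0 passed the adjusted p in limma, with smallest values of 0.397 for Cre/+ and 0.679 for Cre/Cre against +/+ and 0.700 for Cre/Cre against Cre/+. Their median differences were -0.03, -0.03 and -0.01 in the same order, and the snoRNA gene minus its host had a median of 0.09, 0.26 and 0.19. Without Cre/Cre replicate 1 the last 2 values were 0.11 and 0.05.

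The proteins that bind, assemble and process these RNAs were read from a list of 31 names, of which 30 were tested, with mean levels of 5.66 to 115.5 TPM. None passed the adjusted p in any comparison (limma), and an unadjusted p below 0.05 was found for 6 of them in Cre/+ against +/+ (4 lower), 1 in Cre/Cre against +/+ (lower) and 2 in Cre/Cre against Cre/+ (0 lower). Of all genes tested, 10.7%, 6.97% and 6.58% had such a p in these comparisons, and 5.82% had it with a lower level in Cre/+ than in +/+. *Fbl*, the methyltransferase of box C/D particles, differed by -0.22 in Cre/+ and -0.28 in Cre/Cre from +/+, at adjusted p-values of 0.404 and 0.543. *Imp3* and *Imp4*, which bind the U3 snoRNA, differed by -0.26 and -0.25 in Cre/+, and *Xrn2* and *Tent4b*, which trim and tail RNA ends, by 0.20 and 0.26, with adjusted p-values from 0.377 to 0.429 over the 4. *Nhp2*, a core protein of H/ACA particles, differed by 0.23 between Cre/Cre and Cre/+ at an adjusted p of 0.740. The median over the list was -0.03, -0.02 and -0.02 in the 3 comparisons.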

How the data were processed

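RNA of 9 pairs of whole retinas, 1 pair per mouse, was made into strand-specific poly(A) libraries and read as pairs of 150 bases. Per the labels and methods, the authors used Trimmomatic, HISAT2 with mm10, and StringTie. Their versions and the annotation are not given in the sources used here. The deposited values are TPM, FPKM and coverage (mean read depth over a gene), and no counts, so counting intervals and the authors' DESeq2 test were not used here. Poly(A) selection disfavours RNAs without a tail, and reads of overlapping host transcripts enter a gene's value.

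TPM were summed by name. Genes averaging at least 1 TPM were tested on log2(TPM + 1), which understates the change of low genes. The test was limma (version 3.58.1, R 4.3.3) with trend and robust prior, genotype as the only term, all 9 libraries and Benjamini-Hochberg adjustment over 15198 genes, after a trial on simulated data. Deposited coverage over FPKM gave the aligned bases of a library, and coverage times the deposited span gave those of a gene. FPKM in place of TPM, other pseudocounts and filters, scaling, *Xist* as a covariate, a replicate block and each library left out were alternatives.

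The snoRNA genes and the lists were chosen with earlier results of these data known. Named are the 10 highest genes, the 3 with the smallest p per comparison, every *Scarna* gene, the 5 with the largest excess of 1 library, the 5 least variable, the 3 on each side of the limit, genes of imprinted clusters and of the U3, U8, U14 and U22 families, their hosts, and the lists. The values of 1 host gene are not reported here. The drawing tool was matplotlib 3.10.9 (Python 3.11.15).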

Additional observations from a re-analysis of the deposited data

How the results depend on the processing

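No snoRNA gene was called in Cre/+ against +/+, and no snoRNP protein gene in any comparison, under any alternative run. Elsewhere 1 snoRNA gene was called in 4 cases by limma over all genes tested. *Snora3* had a difference of 1.20 and an adjusted p of 0.0454 in Cre/Cre against +/+ without +/+ replicate 3 (range of calls 0 to 1 over libraries left out). Between Cre/Cre and Cre/+, *Snora75* was called with only the genotypes compared (1 gene, 1.48, adjusted p 0.0332) and without +/+ replicate 2 (0 to 1 over libraries left out, 1.48, adjusted p 0.0145), and *Snora43* with *Xist* as a covariate (1 gene, 0.99, adjusted p 0.0189). Over all alternatives their adjusted p-values ranged from 0.0454 to 0.993, 0.0145 to 0.927 and 0.0189 to 0.967. The causes were not tested.

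The median difference of the snoRNA genes turned from 0.05 to -0.11 in Cre/+ against +/+ with *Xist* as a covariate, to -0.0021 with FPKM in place of TPM, and to -0.020 without Cre/+ replicate 3 (range -0.020 to 0.077 over libraries left out). In Cre/Cre against +/+ it was 0.18 with FPKM in place of TPM, 0.15 with *Xist* as a covariate, and 0.18 to 0.32 over libraries left out. In Cre/Cre against Cre/+ it was 0.092 to 0.256 over libraries left out. The snoRNA gene minus its host ranged from 0.012 to 0.199, 0.108 to 0.308 and 0.048 to 0.228 over libraries left out in these 3 comparisons. Dropping Cre/Cre replicate 1 for these counts was an alternative chosen after seeing the data, and all 96 snoRNA genes stayed in that fit. Genes at an unadjusted p below 0.05 then numbered 17 and 20, in place of 7 and 13. Genes at least 2-fold apart numbered 7 and 9, in place of 16 and 19.

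Same-numbered libraries deviated together with correlations of -0.12 to 0.13, so the numbers were not taken to pair the mice. The replicate block left 0 snoRNA genes called in each comparison. The tests that need counts, with edgeR, DESeq2 and their size factors, were not run. Hosts on either strand gave the same 91 genes.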
